A study of Mus musculus with 8 samples.

Results

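The 6 genes described here are Fkbp5, Pmepa1, Homer2, Mme, Ell2 and Tmprss2, androgen-regulated genes of the prostate epithelium that do not encode secretory products. They were taken by symbol from a table of 27036 mouse genes, and all 6 were among the 14034 genes that had a CPM value (counts scaled to a common library size) above 1 in at least 2 libraries and were tested. The libraries were made from bulk prostate RNA of 3 wild-type (WT) mice, 3 mice with prostatic intraepithelial neoplasia (PIN, a lesion that precedes invasive cancer) and 2 mice with prostate cancer (PCa), each library from a different animal. By the paper, the PIN and PCa tissue was checked under the microscope and consisted mostly of atypical or tumor cells. PIN and PCa tissue came from hARtg Osr1Cre mice, which carry a human androgen receptor transgene behind a floxed stop and a red-to-green membrane reporter (R26mTmG). Cre recombinase under the Osr1 promoter opens both, so the transgene is active only in cells that expressed Osr1 at some time and in their descendants. The controls, called WT, were R26mTmG/+:Osr1Cre/+ mice by the paper, which carried the reporter and the Cre without the transgene. The mice were of mixed C57BL/6 and 129S1/SvImJ background, and the labels give no age for single libraries. By the paper, PCa lesions began at a later age than PIN lesions, and the WT mice were matched for age and sex. Without an age for each library, stage and age cannot be told apart in PCa against PIN. Total counts were 21751803 to 29730420 in WT, 27421827 to 28517421 in PIN and 23527628 to 24457124 in PCa.

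The androgen receptor is a ligand-activated transcription factor. On binding testosterone or dihydrotestosterone it leaves a chaperone complex built around HSP90, enters the nucleus and binds response elements made of paired hexamers, often within introns or far from the start of the gene it regulates. In luminal cells of the prostate it sustains both the genes for secreted fluid proteins and a set of genes with roles inside the cell or at its surface, to which these 6 belong. Fkbp5 encodes FKBP51, a co-chaperone in the HSP90 complexes of steroid receptors. Ell2 encodes a transcription elongation factor, and Pmepa1 a membrane protein that inhibits TGF-beta signaling through SMAD proteins. Homer2 encodes a scaffold of calcium signaling complexes. Mme (neprilysin, CD10) and Tmprss2 encode enzymes of the cell surface, the first a peptidase that breaks down small signaling peptides and the second a serine protease.

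The receptor's element was looked for as the letters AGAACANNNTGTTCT, the paired hexamers AGAACA and TGTTCT with 3 bases between them, which read the same on both strands. Up to 1 mismatch in the 12 fixed letters was allowed. In mm9, the build of the deposited counts, no match lay within 10 kb of the start of any of the 6 genes, while 13.8% of the tested genes had a match in such a window. Across the gene bodies with 10 kb on either side, the genes differed. Fkbp5 (chr17:28536040-28654469, minus strand) held 3 matches, of which 2 were exact. Both exact matches lay in introns, at chr17:28579364-28579378 and chr17:28557266-28557280, about 75098 and 97196 bases downstream of the gene's start. The third, with 1 mismatch, lay in a coding exon at chr17:28552829-28552843. Of 18322 genome tiles of the same 138.4 kb, 7.44% held at least as many matches and 0.0928% at least as many exact ones. The sequences of Fkbp5 are shown because this gene alone of the 6 held exact matches. They are given 5′ to 3′ on the gene's strand, with the matched stretch in capitals.

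Fkbp5 intron, first exact match: ttgtttgAGAACAGCTTGTTCTaggcttt

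Fkbp5 intron, second exact match: cacattcAGAACAGGGTGTTCTgtgctct

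Fkbp5 coding exon, 1 mismatch: agagagaAGAACAGTGTATTCTatatctt

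Homer2 (chr7:88745367-88851811, minus strand) held 2 matches with 1 mismatch, both intronic, at chr7:88830490-88830504 and chr7:88803227-88803241, and 21.9% of tiles of its 126.4 kb held as many. Pmepa1 (chr2:173049959-173102034, minus strand) held 1, in an intron at chr2:173081501-173081515, where 39.0% of tiles of 72.1 kb held at least 1. Mme (chr3:63099794-63186153, plus strand) held 3 with 1 mismatch, of which 1 was intronic, at chr3:63161163-63161177, and the others lay downstream of the gene, with as many in 4.04% of tiles of 106.4 kb. Ell2 (chr13:75844932-75909804, plus strand) and Tmprss2 (chr16:97786291-97832802, minus strand) held none, and 43.9% and 36.6% of tiles of their lengths held any. The intronic matches of Homer2, Pmepa1 and Mme are shown for comparison with those of Fkbp5.

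Homer2 intron, nearer the start: ggaaacaAGCACAGGCTGTTCTgagccag

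Homer2 intron, farther from the start: aaaactgAGAACATTATTTTCTtagtgtt

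Pmepa1 intron: gaacaatAGAACACGCTGTTCCaggcagg

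Mme intron: ataaatgAGAACCACTTGTTCTgtatagt

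RefSeq promoters (GRCm38.p6, 250 bases before to 50 after a start) were found for 5 of the 6 genes, 8 promoters in all, but not for Pmepa1. None of the 8 contained AGAACA or TGTTCT, which were found in 19.0% of 32851 promoters of that length. These hexamers hold more A and T than G and C. The GC content of the 8 ran from 46% to 82.3%, mostly above the median of 52.7% over all promoters. The Mme promoters at chr3:63295622-63295921 and chr3:63295845-63296144 overlap. The 19.0% is therefore not a matched background. A match of letters is a description of the sequence and does not show that a receptor binds there.

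The libraries differed in the summed levels of genes that mark cell types and gland parts. In bulk tissue, fewer cells of a type and less RNA per cell cannot be told apart. Summed CPM of the smooth muscle markers (Acta2, Myh11, Tagln, Cnn1, Des) was 1911 to 4620 in WT, 3027 to 5421 in PIN and 17.9 to 41.2 in PCa, and all 5 were called lower in PCa against WT. The luminal epithelial markers (Krt8, Krt18, Cdh1, Epcam, Cd24a), which define the tissue, were present in every library, with 0 of 5 called, and their sum was 8741 in WT 2 against 2702 to 4358 in the other libraries. Basal epithelial markers (Krt5, Krt14, Trp63, Krt15) summed to 167 to 216 in WT, 178 to 387 in PIN, 604 in PCa 1 and 27.4 in PCa 2, also with 0 of 4 called. Prostate secretory markers (Pbsn, Sbp, Spink3, Msmb, Tgm4) summed to at least 43934 in each WT and PIN library, to 5863 in PCa 1 and to 513 in PCa 2, and 2 of 5, Pbsn and Tgm4, were called lower in PCa against WT. Of the sum in PCa 1, 5784 CPM was Sbp, whereas Pbsn was at 8.53 and 60.8 CPM and Tgm4 at 56.0 and 373 CPM in PCa 1 and 2. Seminal vesicle markers (Svs2, Svs4, Svs5, Svs6, Pate4) summed to 15616 in WT 1, 0.634 in WT 2 and 0.769 in WT 3, to 32.5 to 84.4 in PIN, and to 2868 in PCa 1 and 692 in PCa 2. They were thus highest in WT 1, and both tumors lay far above the other WT libraries and above PIN. The 4 proliferation markers summed to 47.8 to 54.9 in WT, 50.04 to 104 in PIN and 482 to 513 in PCa. All 4 were called higher in PCa against WT and against PIN. Against WT, 2 were called without WT 3, 3 without WT 1, and 4 without WT 2 or any 1 of the PIN libraries. Fibroblast, endothelial, leukocyte and neuroendocrine markers gave no call among the 5, 4, 5 and 2 tested, though leukocyte markers summed to 147 in PCa 1 and 18.9 in PCa 2, and fibroblast markers to 610 and 261. With PCa 2 alone, basal and fibroblast calls appeared, and with PCa 1 alone, fibroblast and leukocyte calls. More of all genes were called in these fits too. The part of any of these marker differences in the results on the 6 genes was not tested. The numbers in the library names put WT 1 in one series, WT 2 and WT 3 in another and all PIN and PCa libraries in a further one. Should these series mark batches, their effect and that of the condition cannot be told apart wherever WT is compared.

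**Figure D1:**
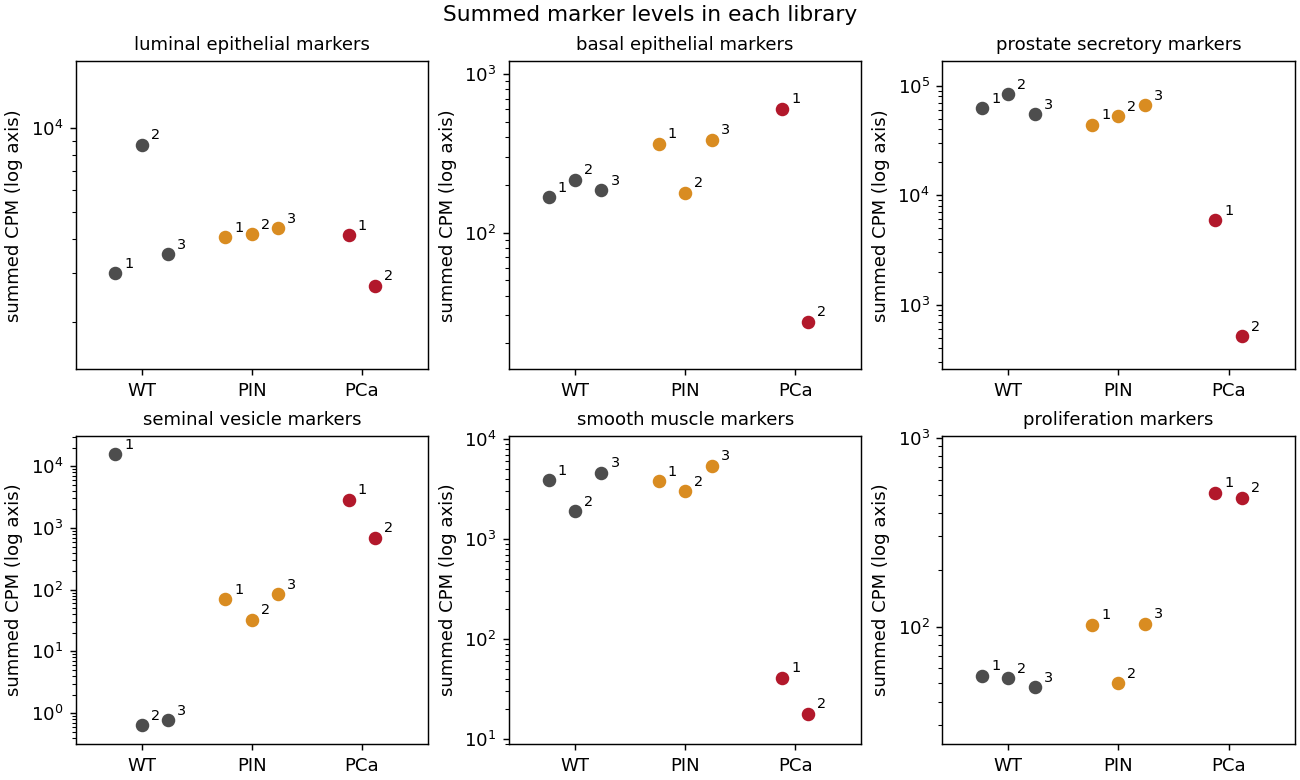
Summed CPM (log axis) of 6 marker lists in each library, with the replicate number beside each point and the groups WT, PIN and PCa on the horizontal axis. Smooth muscle sums fall from at least 1911 in WT and PIN to at most 41.2 in PCa, seminal vesicle markers sum to 15616 in WT 1 and to 2868 and 692 in PCa 1 and 2 against under 1 in WT 2 and WT 3, and basal markers sum to 604 in PCa 1 and 27.4 in PCa 2.

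The 6 genes did not move as a group. Calls required edgeR's quasi-likelihood test to give a Benjamini-Hochberg adjusted p-value under 0.05 over all tested genes, together with a log2 fold change above 1 or below -1. In PIN against WT, 0 of the 6 were called, where the share over all tested genes was also 0%. The lowest adjusted p-value over all genes there was 0.158 with edgeR's quasi-likelihood test, 492 genes had an unadjusted p-value under 0.05, and DESeq2 called 39 genes (0.28%) but none of the 6. In PCa against WT, 1 of the 6 (Fkbp5) was called higher, beside 4.35% of all tested genes called higher and 8.54% called in either direction. In PCa against PIN, 0 of the 6 were called, beside 5.72% of all genes. DESeq2 called 4 of the 6 in PCa against WT (Fkbp5, Pmepa1, Homer2, Tmprss2) and 3 in PCa against PIN (Pmepa1, Homer2, Tmprss2), where it called 17.8% and 14.2% of all genes, more than edgeR did. Counted by whether groups overlap, 1 gene (Fkbp5) lay wholly above WT in PIN and 0 lay below, where the shares over all genes were 6.48% and 6.38%. In PCa, 2 genes (Fkbp5, Homer2) lay wholly above WT and 1 (Tmprss2) wholly below, against 17.7% and 19.6% of all genes. Against PIN, 1 gene (Homer2) lay above and 1 (Tmprss2) below, against 21.1% and 23.2%.

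**Figure D2:**
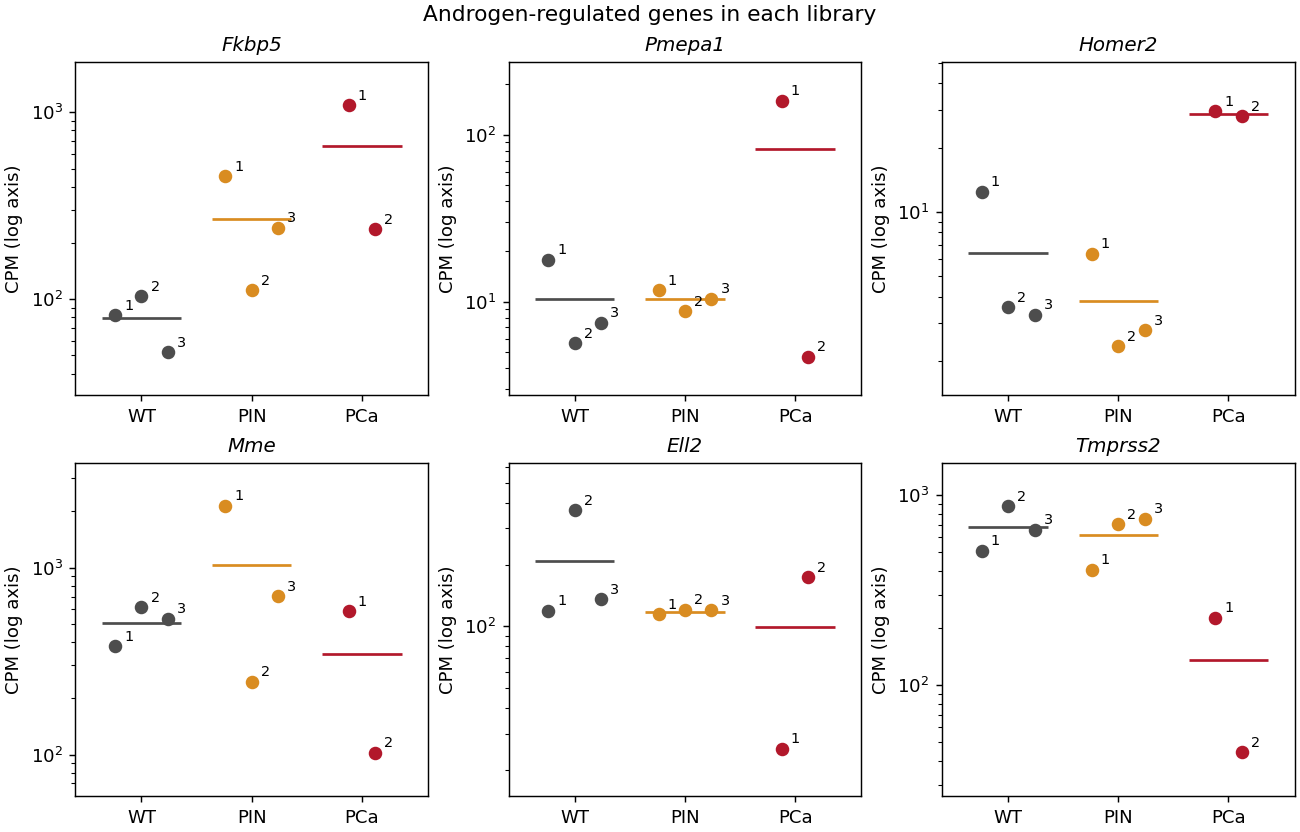
CPM (log axis) of the 6 genes in each library, with the replicate number beside each point and a line at the arithmetic mean of the group. Fkbp5 has its lowest values in WT, Homer2 is at 28.0 and 29.6 CPM in PCa against at most 12.4 elsewhere, and Tmprss2 is lowest in PCa, while Pmepa1 and Ell2 split the PCa libraries in opposite directions.

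Fkbp5 was higher in the transgenic tissues than in any WT library. It measured 81.9, 104 and 52.0 CPM in WT 1, 2 and 3, 454, 112 and 241 CPM in PIN 1, 2 and 3, and 1093 and 236 CPM in PCa 1 and 2. PIN 2 was only slightly above the highest WT library, and PCa 2 was at about the level of PIN 3. Group means were 79.1 ± 25.9 CPM in WT (SD, n = 3), 269 ± 173 CPM in PIN (SD, n = 3) and 665 ± 606 CPM in PCa (SD, n = 2). The log2 fold change from WT to PCa was 3.07 (SE 0.75, 8.40-fold), with an adjusted p-value of 0.0455 in edgeR's quasi-likelihood test. This call held in 8 of 18 alternative settings, and the log2 fold change was above 0 in all 18, from 1.59 to 3.80. Without PCa 1 it was 1.59 (SE 0.65) with an adjusted p-value of 0.137, again from edgeR's quasi-likelihood test. The call was also lost without WT 2 (0.0855), WT 1 (0.110) or WT 3 (0.139), and without any 1 of the PIN libraries (0.0538 to 0.0849), as edgeR's adjusted p-values. From WT to PIN the log2 fold change was 1.76 (SE 0.68), larger in size than that of all but 2.51% of tested genes, yet edgeR's adjusted p-value was 1 and the difference was not called. From PIN to PCa it was 1.31 (SE 0.73, edgeR adjusted p-value 0.333), within the spread between libraries, and it was -0.17 without PCa 1. PIN 2, lowest in Fkbp5 among the PIN libraries, was also lowest in basal markers, at 178 summed CPM against 363 in PIN 1 and 387 in PIN 3. The basal marker Trp63 did not split this way, at 38.3, 39.8 and 42.9 CPM in PIN 1, 2 and 3. PIN 2 stood apart in other lists too. In the same order, proliferation markers summed to 102, 50.04 and 104 CPM and leukocyte markers to 49.3, 89.6 and 41.5 CPM. The part of these marker differences in the Fkbp5 values was not tested. Relative to the mean log2 CPM of Krt8, Krt18, Cdh1 and Epcam, Fkbp5 was -3.63 to -2.28 in WT, -1.72 to -0.21 in PIN and -0.59 to 0.69 in PCa, so the WT libraries were separated from the others on that scale too.

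Ell2, the elongation factor, was the steadiest of the 6 in PIN and among the least steady in PCa. It measured 119, 369 and 135 CPM in WT 1, 2 and 3, 114, 120.3 and 119.6 CPM in PIN 1, 2 and 3, and 25.3 and 173 CPM in PCa 1 and 2. The PIN libraries differed by 1.05-fold, a spread smaller than that of all but 3.11% of genes, while the median spread over genes in PIN was 1.33-fold. WT 2 was 3.10-fold above WT 1, and PCa 1 lay below every other library. WT 2 was also the library with the highest luminal marker sum and with Dnaja1, an HSP70 co-chaperone induced by heat shock, at 952 CPM against 42.2 and 89.1 in the other WT libraries. Relative to Krt8, Krt18, Cdh1 and Epcam, Ell2 differed by 0.19 on the log2 scale over the WT libraries, against 1.63 in log2 CPM. Each other gene of the 6 spread more widely in WT on that scale, from 1.23 for Tmprss2 (0.77 in log2 CPM) to 3.48 for Homer2 (1.91). The relative values of Ell2 also spread more widely in PIN, at 0.58 against 0.07, and in PCa, at 3.70 against 2.77. The cause was not tested. The log2 fold change was -0.82 in PIN against WT (SE 0.69, edgeR adjusted p-value 1), -1.07 in PCa against WT (SE 0.79, 0.427) and -0.25 in PCa against PIN (SE 0.77, 0.882), none of them beyond the spread. Without PCa 2, the log2 fold change of PCa against WT was -3.02 (SE 0.73) and was called, with an edgeR adjusted p-value of 0.0454.

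Pmepa1, the inhibitor of TGF-beta signaling, was high in 1 library only. Its values were 17.8, 5.62 and 7.47 CPM in WT 1, 2 and 3, 11.7, 8.78 and 10.4 CPM in PIN 1, 2 and 3, and 160.2 and 4.66 CPM in PCa 1 and 2. PCa 1 was the highest of the 8 libraries and PCa 2 the lowest, a 34.4-fold difference that exceeded the spread of 97.2% of genes between these tumors. PIN and WT had the same mean, at 10.3 ± 1.48 and 10.3 ± 6.59 CPM (SD, n = 3 each). The fitted log2 fold change of PCa against WT was 3.00 (SE 1.12) with an edgeR adjusted p-value of 0.133. It was 3.97 (SE 0.54, adjusted p-value 0.00926 by edgeR) without PCa 2 and -1.13 (SE 0.68, adjusted p-value 0.291) without PCa 1, so the direction depended on which tumor was kept. The same held against PIN, with log2 fold changes of 3.98 without PCa 2 and -1.13 without PCa 1. DESeq2, which called Pmepa1 in PCa against WT with an adjusted p-value of 0.0206, drew on the same 2 tumors. Several marker sums split the tumors in the same direction, with basal markers at 604 CPM in PCa 1 and 27.4 CPM in PCa 2, leukocyte markers at 147 and 18.9, seminal vesicle markers at 2868 and 692, and fibroblast markers at 610 and 261.

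Homer2, the calcium signaling scaffold, was low in WT and PIN and alike in both tumors. It measured 12.4, 3.58 and 3.29 CPM in WT 1, 2 and 3, 6.37, 2.34 and 2.79 CPM in PIN 1, 2 and 3, and 29.6 and 28.0 CPM in PCa 1 and 2. Both tumors lay above every other library, and WT 1 was the highest of the rest. These 3 libraries were also those with the highest seminal vesicle marker sums, at 2868 CPM in PCa 1, 692 CPM in PCa 2 and 15616 CPM in WT 1, and their part in the Homer2 values was not tested. The tumors differed by 1.06-fold, less than for 91.9% of genes on the log2 scale. The counts behind the lowest values were small, from 68 to 90 reads in PIN 2, PIN 3, WT 2 and WT 3. The log2 fold change was 2.17 in PCa against WT (SE 0.67, edgeR adjusted p-value 0.0857) and 2.91 in PCa against PIN (SE 0.68, 0.0509), and neither passed the threshold. Without WT 1 both were called by edgeR's quasi-likelihood test, at 3.07 against WT (SE 0.55, adjusted p-value 0.0373) and 2.91 against PIN (SE 0.47, adjusted p-value 0.0347). The direction was the same in all 18 alternatives of both comparisons, and 2 of 18 gave a call against WT and 6 of 18 against PIN. In PIN against WT the log2 fold change was -0.74 (SE 0.61, adjusted p-value 1 by edgeR), and it was 0.16 without WT 1.

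Mme, the peptidase, varied most among the PIN libraries. It measured 379, 614 and 532 CPM in WT 1, 2 and 3, 2144, 245 and 702 CPM in PIN 1, 2 and 3, and 585 and 102 CPM in PCa 1 and 2. PIN 1 was the highest and PCa 2 the lowest of all 8 libraries, and the WT values lay between them. The PIN libraries spanned 8.75-fold, more than for 97.9% of genes. All groups overlapped. The log2 fold change was 1.02 in PIN against WT (SE 0.85, edgeR adjusted p-value 1), -0.57 in PCa against WT (SE 0.95, 0.742) and -1.59 in PCa against PIN (SE 0.99, 0.386). The first became -0.12 without PIN 1 and the second 0.22 without PCa 2, and Mme was not called in any of the 18 alternatives of any comparison. Mme and Fkbp5 had the same order in PIN, with PIN 1 highest and PIN 2 lowest.

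Tmprss2, the surface serine protease, had its lowest values in PCa. It measured 512, 873 and 658 CPM in WT 1, 2 and 3, 405, 702 and 753 CPM in PIN 1, 2 and 3, and 227 and 44.4 CPM in PCa 1 and 2. WT and PIN overlapped throughout, both tumors lay below them, and PCa 2 was 5.10-fold below PCa 1. The group means were 681 ± 182 CPM in WT (SD, n = 3), 620 ± 188 CPM in PIN (SD, n = 3) and 135 ± 129 CPM in PCa (SD, n = 2). The log2 fold change of PCa was -2.33 against WT (SE 0.69, edgeR adjusted p-value 0.0774) and -2.19 against PIN (SE 0.69, 0.107), and neither was called. All 18 alternatives kept the direction in both comparisons, with 4 calls against WT and 3 against PIN. Without PCa 1 the gene was called by edgeR's quasi-likelihood test, at -3.93 against WT (SE 0.58, adjusted p-value 0.00587), and without PCa 2 the value was -1.57 (SE 0.50, adjusted p-value 0.0943). Relative to Krt8, Krt18, Cdh1 and Epcam, Tmprss2 stayed between -0.56 and 0.93 on the log2 scale in WT and PIN and was -1.58 or lower in PCa. In PIN against WT the log2 fold change was -0.13 (SE 0.56, adjusted p-value 1 by edgeR).

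**Figure D3:**
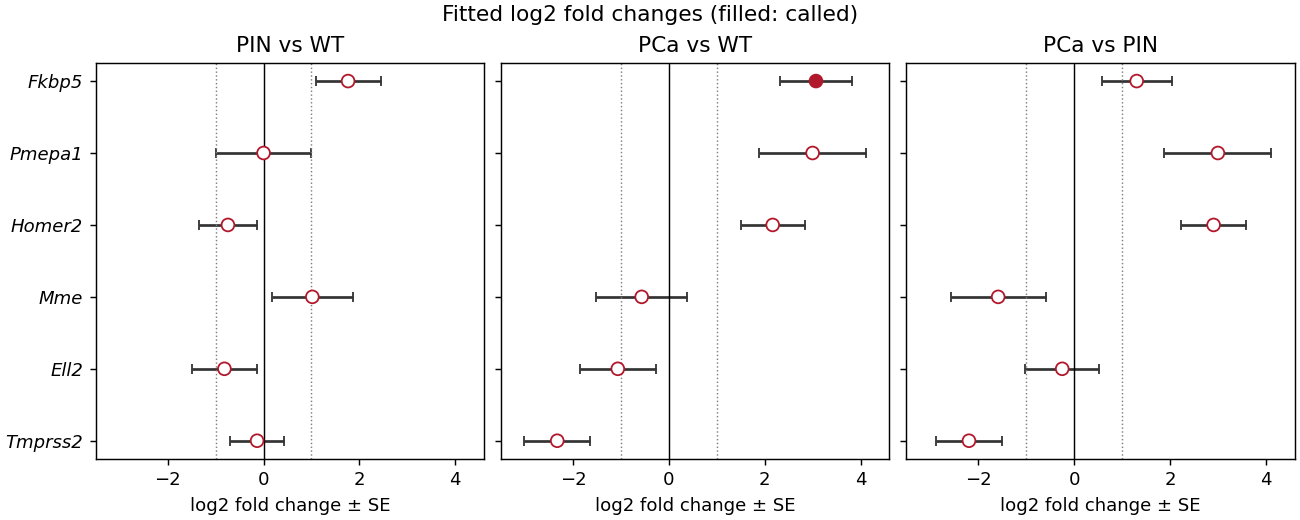
Fitted log2 fold changes with their SE for the 6 genes, 1 panel for each comparison of the groups, with dotted lines at -1 and 1. The filled point, Fkbp5 in PCa against WT at 3.07, is the only call, and Tmprss2 lies at -2.33 and -2.19 in the comparisons with PCa.

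The tumors differed from each other in 5 of the 6 genes. On the log2 CPM scale, PCa 1 exceeded PCa 2 by 5.10 for Pmepa1, 2.52 for Mme, 2.35 for Tmprss2 and 2.21 for Fkbp5, and was below it by a difference of -2.77 for Ell2. Differences of at least the size for Fkbp5 were found for 17.6% of tested genes, and of at least the size for Pmepa1 for 3.27%. Homer2 differed by 0.08. With 1 library left in PCa, the fit assumed that this lone library varied like those of the other groups. On that footing, PCa 1 alone gave log2 fold changes against WT of 3.80 for Fkbp5, 3.97 for Pmepa1, -3.02 for Ell2 and 0.22 for Mme, and PCa 2 alone gave 1.59, -1.13, -0.25 and -2.31 for the same genes. Of these values, those with PCa 1 alone for Fkbp5, Pmepa1 and Ell2 were called.

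**Figure D4:**
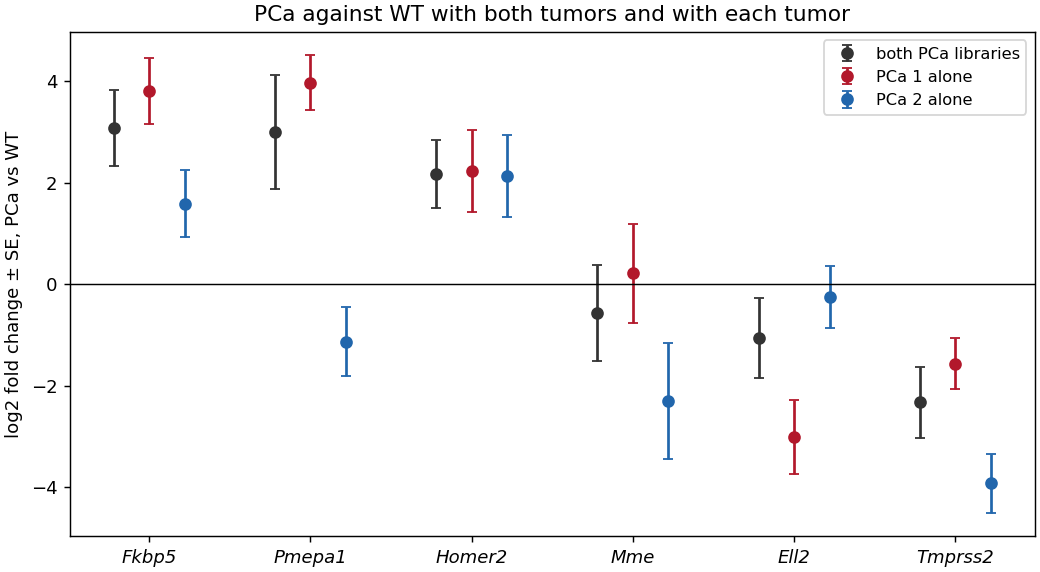
Log2 fold change of PCa against WT with its SE for each gene, fitted with both PCa libraries, with PCa 1 alone and with PCa 2 alone. Homer2 stays between 2.14 and 2.22 with either tumor, while Pmepa1 moves from 3.97 with PCa 1 to -1.13 with PCa 2.

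Levels were also compared between genes as CPM per kilobase of exon. In WT the order of the means was Tmprss2 (215 ± 57.5 CPM per kb, SD, n = 3), Mme (116 ± 27.3), Ell2 (57.0 ± 38.3), Fkbp5 (12.5 ± 4.10), Pmepa1 (1.14 to 3.63 over the libraries) and Homer2 (0.577 ± 0.465). Neighbours in this order did not overlap, except that Ell2 in WT 2 (101) exceeded Mme in WT 1 (86.6). In PIN, Mme (235 ± 226) overlapped both Tmprss2 (196 ± 59.4) and Fkbp5 (42.6 ± 27.3), and Fkbp5 overlapped Ell2 (32.4 ± 0.911), all of them above Pmepa1 (1.79 to 2.39) and Homer2 (0.344 ± 0.198). In PCa, Fkbp5 had the highest mean (105 ± 95.9, SD, n = 2), with 173 CPM per kb in PCa 1, more than any other of the 6 in that library. In PCa 2 the highest was Ell2, at 47.5 CPM per kb, followed by Fkbp5 at 37.4 and Mme at 23.3.

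The surrounding pathways were read from lists of genes chosen for each of the 6, and in PIN against WT none of their genes was called. Of 14 HSP90 and FKBP partners of steroid receptors, 0 were called in any comparison, with a median log2 fold change of -0.28 in PCa against WT, where the median of all tested genes was 0.01. The negative median rested on WT 2, where the list summed to 11264 CPM against 3461 and 3857 CPM in the other WT libraries and 3803 and 5755 CPM in PCa, and without WT 2 it was 0.39. The highest in that list was Ppid (cyclophilin 40), at 0.82 (SE 0.26, edgeR adjusted p-value 0.0947), and the lowest Dnaja1, at -1.43 (SE 1.19). Dnaja1 measured 93.7 and 174 CPM in PCa 1 and 2, above WT 1 and WT 3 but far below WT 2, and without WT 2 its log2 fold change was 1.03 (SE 0.48), also not called. Of 15 TGF-beta signaling genes, Tgfb1, the ligand, was called higher in PCa, and the list median was -0.05, with values from -0.30 to 0.13 as each library was left out. Without WT 3, 0 of its genes were called, where calls over all genes fell from 1198 to 347. Each other fit without a WT or PIN library called 1. More of the list were called with either tumor alone, as were more of all genes. Tgfb1 measured 7.65 to 11.8 CPM in WT, 9.37 to 13.3 CPM in PIN, and 32.9 and 35.8 CPM in PCa, a log2 fold change of 1.86 against WT (SE 0.28, edgeR adjusted p-value 0.0123). It was alike in both tumors, unlike Pmepa1. Tgfb2, another ligand, was lowest in that list, at -2.46 (SE 0.63) against WT, and was not called. Of 12 genes of the super elongation complex and ELL family, Mllt3 (AF9, a subunit) was called higher in PCa against WT, at 2.11 (SE 0.44, edgeR adjusted p-value 0.0293), and the median was 0.10, or -0.093 without PCa 2. Calls in that list numbered 0 without WT 3, PIN 2 or PIN 3, where 347, 723 and 447 of all genes were called. More were called with PCa 2 alone, as were more of all genes.

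Of 9 tested transmembrane serine proteases and their inhibitors, with a median of 0.48 that became -0.17 without PCa 2, 1 was called in PCa against WT, Tmprss6, a protease known from iron regulation in the liver. It measured 1.32 and 2.02 CPM in PCa 1 and 2 and at most 0.05 CPM in each WT and PIN library. Tmprss6 thus passed the filter on low values only through the group where it was high, so its call is not independent of that filter. Prss8 (prostasin) was lowest in the list, at -1.10 (SE 0.38), and was not called. There were 0 calls in this list without WT 1, WT 3, PIN 1 or PIN 3, where 347 to 628 of all genes were called. More were called with PCa 2 alone, as were more of all genes. Of 12 HOMER family members and partners, Itpr2, an intracellular calcium channel, was called lower in PCa against WT. The list median was -0.55, and became 0.0081 without WT 1 and -1.16 without PCa 2. More of the list were called with either tumor alone, as were more of all genes. Itpr2 measured 94.7 to 125 CPM in WT, 95.3 to 110 CPM in PIN, and 17.1 and 28.5 CPM in PCa, a log2 fold change of -2.21 against WT (SE 0.28, edgeR adjusted p-value 0.00816). Both tumors lay below all other libraries in Itpr2 and above all others in Homer2. Of 11 peptidases and peptide signals around MME, 0 were called with all libraries in any comparison, with a median of 0.23 in PCa against WT and a range from -2.81 for Edn3 to 2.91 for Tacr1. Tacr1 was at 9.24 CPM in PCa 1 and 0 in PCa 2, against 0.14 to 1.43 CPM in WT, so its value came from 1 tumor. The list median was 0.77 without WT 1, -0.20 without WT 2, -0.09 without WT 3, -0.89 without PCa 1 and -0.11 without PCa 2. Calls in it appeared only with either tumor alone, where more of all genes were called too.

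A further list held 30 genes known to respond to androgen in prostate cells, of which 29 had a row and were tested. In PCa against WT, 3 were called higher and 1 lower, beside 8.54% of all tested genes called in either direction, and the median log2 fold change was 0.12, or -0.18 without PCa 1 and 0.34 without PCa 2. The number called was 1 or 2 without any single WT or PIN library, where 347 (without WT 3) to 1023 (without WT 2) of all genes were called. More of the list were called with either tumor alone, as were more of all genes. Aldh1a3, a retinaldehyde dehydrogenase, measured 3.95 to 10.8 CPM in WT and 58.8 and 54.4 CPM in PCa, a log2 fold change of 2.99 (SE 0.47, edgeR adjusted p-value 0.0129). Sord, sorbitol dehydrogenase, measured 330 to 495 CPM in WT and 36.5 and 112 CPM in PCa, a log2 fold change of -2.54 (SE 0.51, edgeR adjusted p-value 0.0269). The other calls rested mainly on PCa 2. Inpp4b, a phosphoinositide phosphatase, was at 2.41 CPM in PCa 1, within its range of 0.95 to 4.89 CPM in WT and PIN, and at 203 CPM in PCa 2. Adamts1, a secreted metalloproteinase, was at 21.5 CPM in PCa 1 and 138 CPM in PCa 2, against 12.1 to 13.8 CPM in WT and PIN. Of 15 tested receptor cofactors and enzymes of androgen metabolism, with a median of -0.06, Ncoa1, the coactivator SRC-1, was called lower in PCa. The number called was 2 without WT 2 and 0 without WT 3 or PIN 3, where 1023, 347 and 447 of all genes were called. More were called with PCa 2 alone, as were more of all genes. Ncoa1 measured 90.1 to 113 CPM in WT and 46.9 and 50.3 CPM in PCa, a log2 fold change of -1.07 (SE 0.19, edgeR adjusted p-value 0.0174). Srd5a2, the steroid 5-alpha-reductase that makes dihydrotestosterone, had the lowest value of that list, with 4.84, 0.23 and 2.82 CPM in WT 1, 2 and 3 and 0.13 and 0 CPM in PCa 1 and 2, and was not called. Of the list genes called in PCa against WT, Itpr2 and Aldh1a3 kept their call in all 8 fits that each left out 1 library, Tgfb1 in 7, Ncoa1 in 6, and Mllt3 and Sord in 4 each. Inpp4b and Adamts1 kept it in 1 fit, the one without PCa 1. Tmprss6 kept it in 2 and did not pass the filter on low values when either PCa library was left out.

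**Figure D5:**
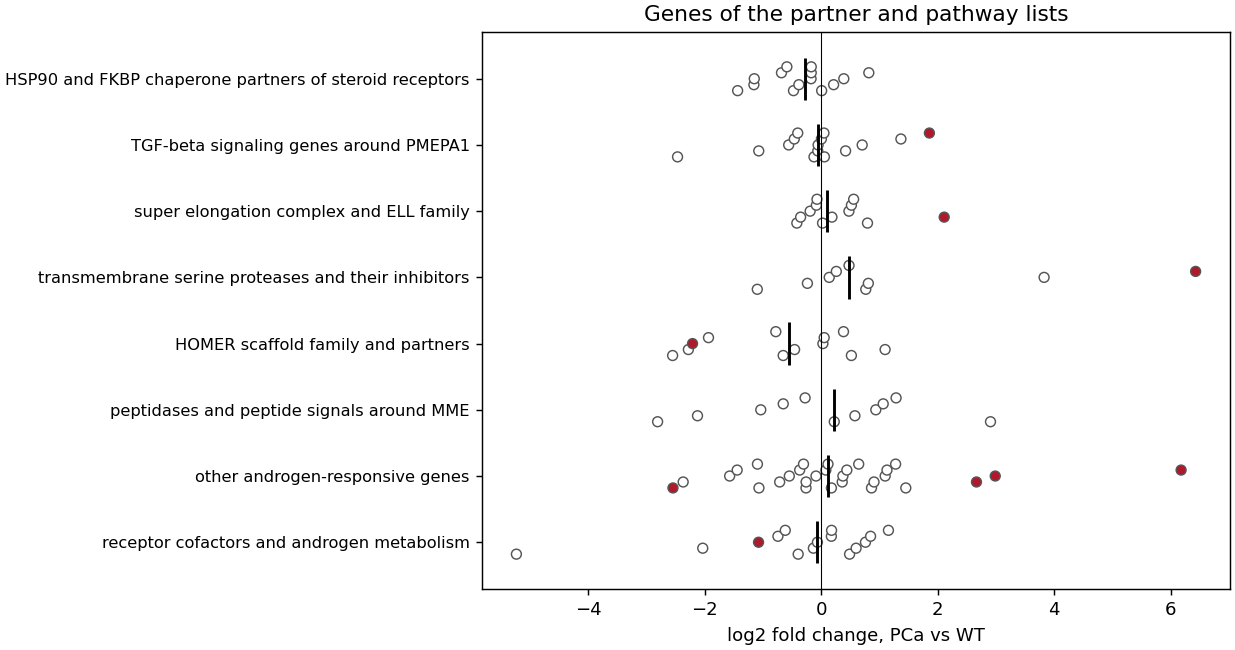
Log2 fold change of PCa against WT for each tested gene of the 8 partner and pathway lists, filled where called, with a bar at the list median. Medians lie between -0.55 and 0.48, and the filled points include Tgfb1 at 1.86, Itpr2 at -2.21 and Sord at -2.54.

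The 6 genes also differed in which genes of the table varied most like them in log2 CPM over the 8 libraries, by Pearson's r. These correlations share libraries and group differences, so they are descriptions without a test. Fkbp5 was most like Khdc1a (r = 0.971) and 1110012L19Rik (r = 0.968). The nearest to Pmepa1 were Med12l (r = 0.983) and Acox3 (r = 0.977), an acyl-CoA oxidase, which measured 270 CPM in PCa 1, 28.5 CPM in PCa 2 and 45.6 to 74.7 CPM elsewhere. Homer2 was followed by Slc16a3 (r = 0.985), a lactate transporter, and Tspo (r = 0.984), a mitochondrial outer membrane protein, and both were highest in the 2 tumors. The closest to Mme were Zdhhc2 (r = 0.964) and Epb4.1l4a (r = 0.942), and only 6 genes had r above 0.9 with it. Ell2 was matched by Pxk (r = 0.995) and Lmo7 (r = 0.982). Tmprss2 varied like Ahi1 (r = 0.992) and Agr2 (r = 0.991), a protein disulfide isomerase of secretory cells that measured 652 to 1502 CPM in WT and PIN, 75.7 CPM in PCa 1 and 3.26 CPM in PCa 2. For Tmprss2, 475 genes had r above 0.9, against 45 for Fkbp5. Among the 6 themselves, r was highest for Fkbp5 and Pmepa1, at 0.67, and lowest for Pmepa1 and Ell2, at -0.92.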

How the data were processed

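RNA of 8 mouse prostate libraries was sequenced as paired-end reads after removal of ribosomal RNA. Per the labels and the paper, the authors trimmed adapters with cutadapt 1.9.1, aligned the reads to mm9 with HISAT2 2.1.0 and counted reads per gene with HTSeq 0.6.1. The deposited values are raw counts, and a further deposited column holds the exon length per gene, which is another kind of value and was used for CPM per kb. No strand setting for counting is given in the sources used here, so reads of overlapping antisense genes cannot be told apart.

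Counts were fitted in R 4.3.3 with edgeR 4.0.16 (quasi-likelihood F-test, TMM, genes with CPM above 1 in at least 2 libraries, 1 model with 3 groups and 5 residual degrees of freedom). Benjamini-Hochberg adjustment was made within each comparison over all 14034 genes, and calls needed an adjusted p-value under 0.05 with a log2 fold change above 1 or below -1. SE values were computed by dividing the log2 fold change by the root of the F statistic. Log2 CPM used a prior count of 0.5. The steps were tested on simulated counts, which were given a smaller spread than these data have. That test checks the steps and does not measure their power here. The common biological coefficient of variation of the data was 0.489, and p-values measure the spread between these animals only. PCa rests on 2 tumors, whose difference limits its comparisons.

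The 6 genes, the partner and pathway lists and the marker lists were chosen with earlier results of these data known. Genes named outside the 6 are marker genes, the highest and lowest log2 fold change of a list in PCa against WT, called list genes, and the 2 tested genes with the highest Pearson r to each of the 6. Motif matches were read from the mm9 genome with pyfaidx 0.9.0.4 and their annotation from GENCODE, and tiles with 10% or more unknown bases were left out. Alternatives were DESeq2 1.42.0, limma-trend (limma 3.58.1), edgeR with legacy=FALSE, upper-quartile normalization, filterByExpr or no filter, a fit restricted to the groups compared, the replicate number as a block, no fold change limit, library sizes scaled to Krt8, Krt18, Cdh1 and Epcam, and leaving out each library, which was applied to the partner and pathway lists after seeing the data. 1 gene of the androgen axis is not reported here.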

Additional observations from a re-analysis of the deposited data

How the results depend on the processing

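In PCa against WT, the count of called genes was 1198, and the count of the 6 genes called was 1. The counts were 2487 and 4 with DESeq2, 123 and 0 with only the groups compared in the model, 413 and 0 with the replicate block, 900 and 2 with library sizes scaled to Krt8, Krt18, Cdh1 and Epcam, and 347 to 2477 and 0 to 3 when each library was left out. In PCa against PIN, 803 genes and 0 of the 6 were called, which became 1984 and 3 with DESeq2, 359 and 0 with only the groups compared, 151 and 0 with the replicate block, and 78 to 2251 and 0 to 2 when each library was left out. There, limma-trend called 1001 genes and 1 of the 6, legacy=FALSE 1038 and 1, and epithelial scaling 649 and 2. In PIN against WT, 0 genes were called, against 39 with DESeq2, 1 with legacy=FALSE and 43 with epithelial scaling, none of them among the 6. Epithelial scaling moved the median log2 fold change of all genes to 0.25 (PIN against WT) and 0.21 (PCa against WT). Calls in PCa against WT were then 575 higher and 325 lower, against 611 and 587, and Tmprss2 was called at -2.37, while Fkbp5 kept its call.

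Fkbp5 in PCa against WT was not called with only the groups compared (edgeR adjusted p-value 0.111), with the replicate block (0.109), with limma-trend (0.0595), without any single WT or PIN library, or without PCa 1. The direction of a log2 fold change turned in these settings. In PIN against WT, Tmprss2 was 0.28 with epithelial scaling and ranged from -0.30 to 0.087 over fits that each left out 1 library. In such fits of the same comparison, Homer2 ranged from -1.33 to 0.16 (highest without WT 1), Mme from -0.12 (without PIN 1) to 1.48 and Pmepa1 from -0.29 to 0.66, with 6 of these below 0. Leaving out 1 library gave, in PCa against WT, -1.13 (without PCa 1) to 3.97 (without PCa 2) for Pmepa1 and -2.31 (without PCa 1) to 0.22 (without PCa 2) for Mme. In PCa against PIN it gave -0.17 to 2.04 for Fkbp5, -1.13 to 3.98 for Pmepa1 and -2.20 to 0.57 for Ell2, where PCa 1 and PCa 2 set both ends. The median of the 29 other androgen-responsive genes in PCa against WT, 0.12, ranged from -0.18 to 0.34 when each library was left out. Of them, 1 or 2 were called without any single WT or PIN library, and more with either tumor alone, as were more of all genes. The cause of these changes was not tested.

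Each library came from a different animal, and the labels do not say that replicate numbers mark anything shared between groups. Deviations from the group means correlated from -0.06 to 0.29 over 7 pairs of libraries with the same number and from -0.29 to 0.18 over 14 other pairs, and 5 of 8 libraries correlated best with their own number. The deviations of the 2 PCa libraries mirror each other, so their pairs are not independent. These values do not decide whether the numbers mark something shared. The replicate block called 0 genes in PIN against WT, and Fkbp5 in PCa against WT was the only one of the 6 whose call it changed.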
